A study of Nannochloropsis oceanica with 36 samples.

Results

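The transcriptome of nitrogen-deprived (N-deprived) cells of Nannochloropsis oceanica IMET1 was compared between 24 h and 6 h after transfer, the step from the early response into the late deprived state. Nannochloropsis oceanica is a unicellular, oil-rich marine alga of the eustigmatophytes. The comparison rests on the 3 libraries labelled Nitrogen 24h and the 3 labelled Nitrogen 6h, chosen by their titles, so 6 of the 36 libraries of the series. All cultures had been grown with nitrate in enriched seawater medium under continuous light and CO2-enriched air, washed in mid-logarithmic phase and re-inoculated at equal cell number, the deprived cultures into medium without nitrogen and the control cultures into nitrogen-replete (N-replete) medium. Both media were sampled at 3, 4, 6, 12, 24 and 48 h from 3 replicate cultures, and the same light was kept in both. The 3 Control 24h and 3 Control 6h libraries served to show where the deprived cells differed. The cells are 1 strain without genetic change, and the protocols do not say whether a replicate number follows 1 culture over time.

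Algae deprived of nitrogen stop dividing, draw on internal nitrogen such as chloroplast protein, and channel fixed carbon into storage lipid, mainly triacylglycerol. In Nannochloropsis species this is accompanied by a loss of photosynthetic pigment. Diacylglycerol acyltransferases, which come as types 1 and 2, carry out the last step of triacylglycerol synthesis. The deposited identifiers pair 1 gene model, isotig00738.DGAT1A, with such a symbol and leave the others as scaffold and model numbers. None of the 9756 identifiers matched the reference table at hand, which holds organelle genes. Other gene models are therefore given by identifier and position, with no role, and the pathways named above and the identity of the cells could not be checked by marker genes. For the same reason no sequences are shown.

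Values are FPKM, fragments scaled to the length of the gene model and to the size of the library, so a level is a share of the library, and fewer cells and less RNA per cell cannot be told apart. The summed FPKM lay between 536676 and 552351 in the 6 h libraries and between 505321 and 548281 in the 24 h libraries, the lowest being replicate 3 at 24 h. Fragment totals were not given. Relative depths fitted to the steps of low values ran from 0.727 to 0.907 at 6 h and from 1.04 to 1.29 at 24 h, so low genes were measured somewhat more finely at 24 h. With these depths 89.1% of 386 low values lay within 0.1 of a whole number of fragments. The depths and the fragment step of each gene were fitted to these low values, so this share describes the fit and does not check it. On the log2(FPKM + 1) scale Pearson's r, taken across genes, was 0.9916 to 0.9943 between the 6 h replicates and 0.9913 to 0.9937 between the 24 h replicates, against 0.7842 to 0.8146 between the times. These are correlations across genes, which are not independent replicates.

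Between 6 and 24 h of nitrogen deprivation 4271 of 9647 genes tested rose and 3344 fell, 44.3% and 34.7% of the genes (limma, Benjamini-Hochberg adjusted p under 0.05). At least 2-fold on the log2(FPKM + 1) scale, 1337 genes rose and 1315 fell, 13.9% and 13.6% of the genes. At least 4-fold, falls outnumbered rises, with 295 fallen against 149 risen genes, and at least 8-fold 9 had fallen and 8 had risen. The 3 libraries of 24 h did not overlap the 3 of 6 h for 81.9% of genes, among them 1334 of the genes that rose and 1313 of those that fell at least 2-fold. The median gene shifted by 0.11 on the log2 scale, and by 0.05 once libraries were scaled to a common median ratio (median-ratio centring). The genes that rose at least 2-fold made up 7.50%, 8.17% and 7.83% of the summed FPKM in the 6 h libraries and 22.6%, 23.1% and 22.2% in the 24 h libraries. Those that fell at least 2-fold made up 27.1%, 25.8% and 26.2% at 6 h and 8.05%, 8.16% and 8.29% at 24 h. These shares describe genes chosen for their change. The risen genes had a median level of 13.6 FPKM at 6 h and 40.4 FPKM at 24 h, and the fallen genes 55.5 and 16.6 FPKM, around a median of 28.1 and 29.4 FPKM over all genes tested. Locus lengths were alike, with medians of 2148 bp for the risen, 2290 bp for the fallen and 2135 bp for all genes.

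The largest rise was that of scaffold00271.g8199 (scaffold00271, 871659 to 873245), which stood at 0.846, 1.92 and 0.791 FPKM in the 6 h libraries and at 49.8, 56.0 and 46.9 FPKM in the 24 h libraries. It was near the detection limit at 6 h and well expressed at 24 h in each library. The log2 change was 4.60 (SE 0.194; limma, Benjamini-Hochberg adjusted p = 2.38e-19), 24.3-fold, a size that the added 1 FPKM holds down. Next came scaffold00214.g6293 (scaffold00214, 718944 to 720038), at 6.04, 5.39 and 6.09 FPKM at 6 h and 104, 95.5 and 92.6 FPKM at 24 h. The groups were far apart, and the log2 change was 3.85 (SE 0.148; limma, adjusted p = 2.93e-20), 14.4-fold.

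The largest fall was that of scaffold00267.g7684 (scaffold00267, 498312 to 500902), from 54.6, 45.7 and 48.9 FPKM at 6 h to 2.25, 2.79 and 2.32 FPKM at 24 h. Its log2 change was -3.88 (SE 0.166; limma, adjusted p = 3.50e-19), 14.7-fold lower. The transcript with the highest level of all at 6 h, scaffold00069.g2383 (scaffold00069, 445093 to 446789), fell from 3747, 4334 and 4123 FPKM to 318, 318 and 332 FPKM, a log2 change of -3.65 (SE 0.111; limma, adjusted p = 2.43e-22). Its share of the summed FPKM dropped from 0.745% to 0.061%, and its rank by level moved from number 1 to number 187. For each of these largest rises and falls the 12 h level in N-deprived cells lay between those of 6 and 24 h. At 12 h scaffold00069.g2383 already stood at 584 ± 45.1 FPKM and scaffold00267.g7684 at 5.16 ± 0.588 FPKM, while scaffold00271.g8199 stood at 16.0 ± 1.96 and scaffold00214.g6293 at 66.9 ± 4.21 FPKM (SD, n = 3 each). By 48 h scaffold00214.g6293 was at 243 ± 14.6 and scaffold00069.g2383 at 73.5 ± 6.75 FPKM, each beyond its 24 h level, whereas scaffold00271.g8199 was at 26.2 ± 3.69 FPKM, below it (SD, n = 3 each). The 12 h libraries of both media stand apart from the rest of the series, which touches every value given for that time. In N-replete cells at 12 h scaffold00271.g8199 stood at 13.3 ± 2.28 and scaffold00214.g6293 at 15.1 ± 2.52 FPKM, up from 1.25 and 1.60 at 6 h. There scaffold00069.g2383 was at 3633 ± 484 and scaffold00267.g7684 at 3.23 ± 1.23 FPKM, down from 6300 and 49.2 (SD, n = 3 each). For scaffold00271.g8199 the media were not called different at 12 h (limma, adjusted p = 0.263).

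**Figure D1:**
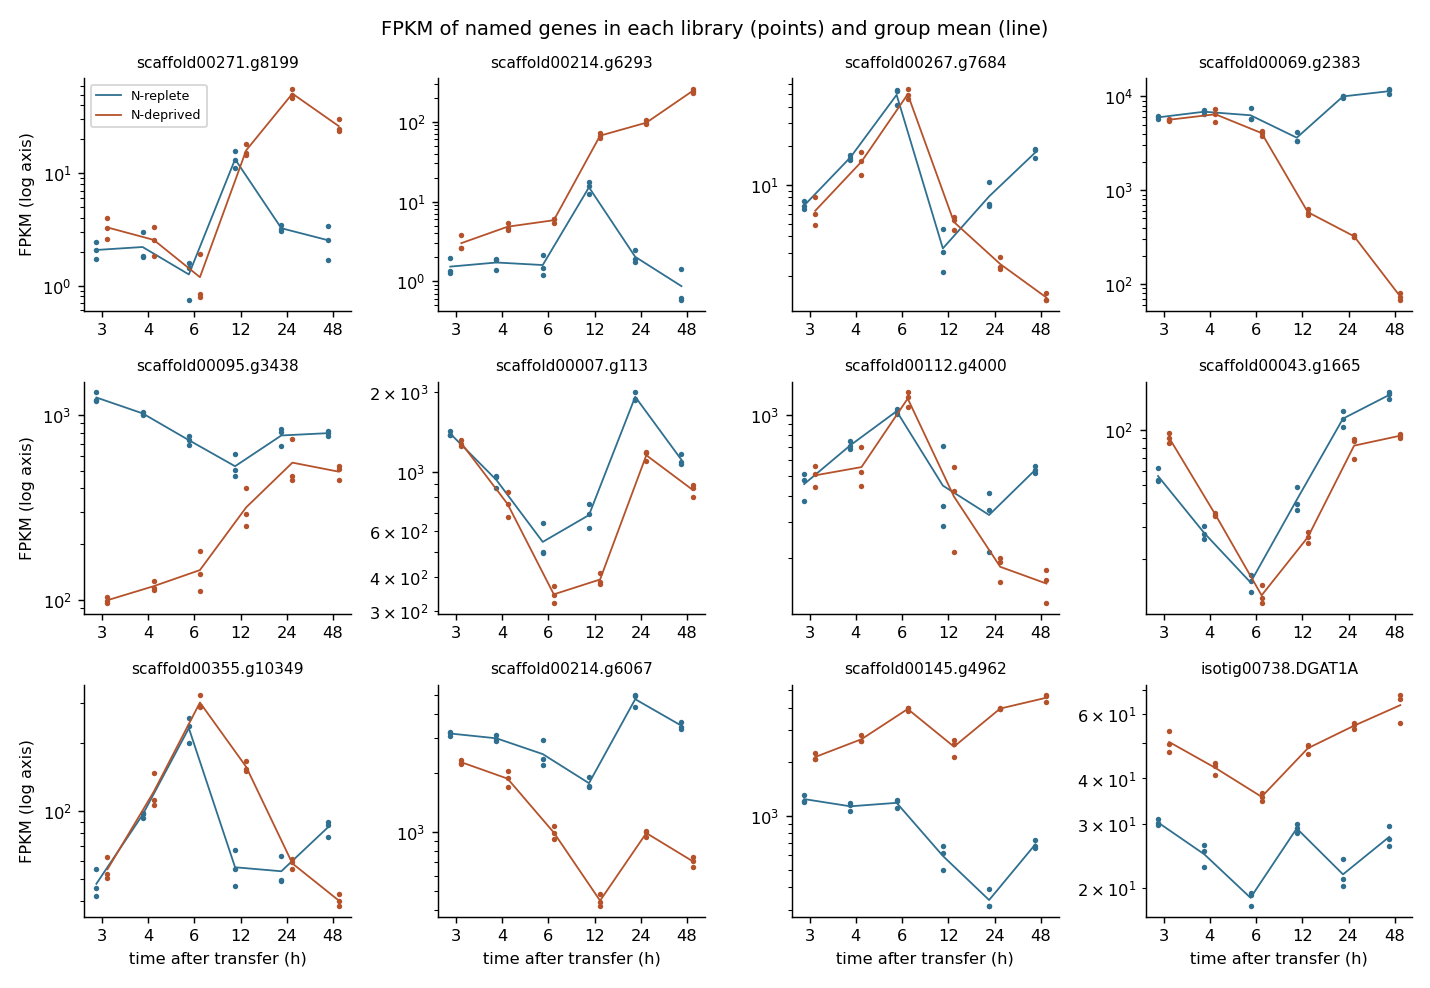
Points are the FPKM of each library on a log axis for 12 of the named genes, against time after transfer, with 3 libraries per medium and time, and lines join the group means. In N-deprived cells scaffold00271.g8199 and scaffold00214.g6293 climb from 6 to 24 h and scaffold00069.g2383 drops, while scaffold00145.g4962 is as high at 24 h as at 6 h.

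Among the most abundant transcripts falls were more frequent than rises. Of the 100 genes with the highest mean FPKM over all 36 libraries, all at 521 FPKM or more, 30 rose and 57 fell between 6 and 24 h in N-deprived cells, against 44.3% and 34.7% of all genes tested. At least 2-fold 13 rose, close to the 13.9% of all genes, and 21 fell, against 13.6%. The counts were 13 and 19 with the 100 genes ranked over the 24 libraries of other times. Median-ratio centring gave 11 risen and 21 fallen at least 2-fold, and quantile normalization 19 and 22. The surplus of 2-fold falls over 2-fold rises among the 100 genes was thus small with quantile normalization. The number of rises depended on the scaling, whereas that of falls stayed at 21 or 22. Over all genes tested 1337 rose and 1315 fell at least 2-fold. These counts were 1210 and 1404 with centring, and 1301 and 1418 with quantile normalization. The median log2 change of the 100 genes was -0.41, against 0.11 for all genes tested. Among the 2411 genes with the lowest mean level, up to 16.1 FPKM, 17.9% rose and 11.5% fell at least 2-fold, and among the 2412 with the highest, from 53.4 FPKM, 12.9% rose and 18.4% fell. The 100 genes together took 14.8%, 15.2% and 15.1% of the summed FPKM at 6 h and 13.8%, 14.2% and 13.9% at 24 h. In N-replete cells their share was 17.9% to 19.4% at 6 h and 24.3% to 24.8% at 24 h, so the media lay further apart at 24 h.

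Rises among these abundant transcripts were led by scaffold00095.g3438 (scaffold00095, 331697 to 336091), at 138, 184 and 112 FPKM at 6 h and 447, 740 and 470 FPKM at 24 h. The 24 h libraries scattered, with replicate 2 well above the others, but none came near the 6 h libraries. Its log2 change was 1.92 (SE 0.156; limma, adjusted p = 1.47e-12). This transcript had been far below its N-replete level from the start, at 99.2 ± 4.08 against 1245 ± 75.4 FPKM at 3 h (SD, n = 3 each), and was still lower at 48 h, at 493 ± 42.4 against 798 ± 28.3 FPKM (SD, n = 3 each). The rise of scaffold00007.g113 (scaffold00007, 303842 to 306876), from 320, 372 and 344 to 1171, 1189 and 1099 FPKM, regained most of the 1279 ± 29.9 FPKM (SD, n = 3) it had at 3 h. Its log2 change was 1.74 (SE 0.089; limma, adjusted p = 2.35e-17). N-replete cells shared this rise, from 544 ± 82.5 to 1914 ± 69.9 FPKM, after 1391 ± 25.1 FPKM at 3 h (SD, n = 3 each). The difference of the log2 changes was -0.08 (SE 0.126; limma, adjusted p = 0.602).

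Besides scaffold00069.g2383, the deepest fall of an abundant transcript was that of scaffold00112.g4000 (scaffold00112, 208511 to 209135), from 1292, 1217 and 1095 to 190.2, 153 and 199.6 FPKM. It was number 13 by level at 6 h and number 471 at 24 h, with a log2 change of -2.73 (SE 0.263; limma, adjusted p = 6.75e-11). In N-replete cells it fell too, by a log2 change of -1.73 (SE 0.263; limma, adjusted p = 7.93e-07). The difference of the changes was -0.997 (SE 0.372; limma, adjusted p = 0.0268). The least changed of the abundant transcripts was scaffold00214.g6067 (scaffold00214, 1086 to 2040), at 923, 1072 and 984 FPKM at 6 h and 1015, 999 and 948 FPKM at 24 h. Its level overlapped between the times, with a log2 change of -0.01 (SE 0.091; limma, adjusted p = 0.958), although it rose in N-replete cells from 2492 ± 387 to 4744 ± 376 FPKM (SD, n = 3 each). The next was scaffold00145.g4962 (scaffold00145, 358296 to 359920), number 2 by level at both times, at 3995, 3963 and 3814 FPKM and then 3993, 3929 and 3919 FPKM. Its log2 change was 0.01 (SE 0.096; limma, adjusted p = 0.938), while in N-replete cells it fell from 1178 ± 69.8 to 339 ± 43.6 FPKM (SD, n = 3 each). The change of this gene was -0.05 after median-ratio centring and -0.24 after quantile normalization, short of the threshold in each case. Neither gene was level throughout. At 12 h in N-deprived cells scaffold00214.g6067 stood at 447 ± 31.5 and scaffold00145.g4962 at 2421 ± 259 FPKM (SD, n = 3 each).

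Much of the step from 6 to 24 h was shared with cells that had nitrogen. Over the same interval N-replete cells had 728 genes with a rise and 918 with a fall of at least 2-fold, 7.55% and 9.52% of the genes tested, in libraries not used for the deprived comparison. Of the 1337 genes risen at least 2-fold in N-deprived cells 1229 (91.9%) were called higher in N-replete cells too, where 33.8% of all genes were, and 14 were called lower. Of the 1315 fallen genes 1259 (95.7%) were called lower in N-replete cells, against 38.8% of all genes, and 20 were called higher. At least 2-fold in both media, 516 genes rose, 38.6% of the deprived and 70.9% of the replete list, and 796 fell, 60.5% and 86.7% of the lists. Across the 9647 genes the log2 changes in the media had a Pearson's r of 0.837, a description over genes that are not independent replicates. The spread of the changes was wider in N-deprived cells, with an SD across genes of 0.95 against 0.71.

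**Figure D2:**
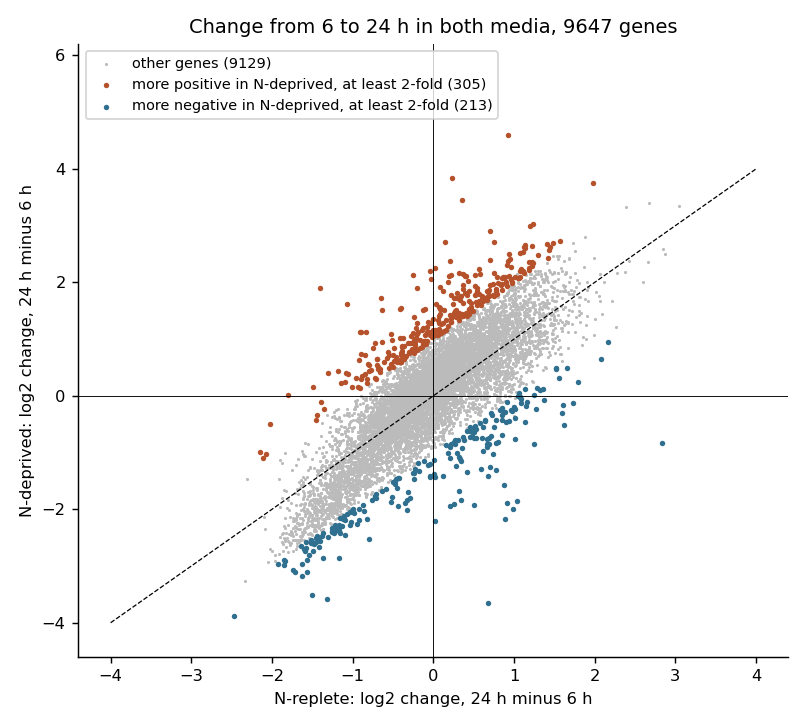
Each point is 1 of 9647 genes, with its log2 change from 6 to 24 h in N-replete cells on the horizontal and in N-deprived cells on the vertical axis, and the dashed line marks equal change. The changes in the media went together (Pearson's r of 0.837 across genes) but were wider in N-deprived cells, with an SD of 0.95 against 0.71. The coloured points are the 305 and 213 genes whose change differed between media by at least 2-fold.

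Genes that moved alike in both media were named by the smaller of their changes. Transcripts of scaffold00214.g6079 (scaffold00214, 50516 to 51737) went from 2.74, 3.55 and 3.02 to 43.0, 39.5 and 38.9 FPKM in N-deprived cells, and from 2.25 ± 0.720 to 25.9 ± 7.17 FPKM (SD, n = 3 each) in N-replete cells. The log2 changes were 3.34 and 3.04 (SE 0.283 each), with a difference of 0.30 (SE 0.400; limma, adjusted p = 0.552). Those of scaffold00043.g1665 (scaffold00043, 426753 to 427733) went from 12.3, 14.5 and 11.6 to 86.7, 89.2 and 69.7 FPKM in N-deprived cells. Both media showed this rise, with log2 changes of 2.58 and 2.85 (SE 0.101 each) and a difference of -0.27 (SE 0.143; limma, adjusted p = 0.123). At 3 h this transcript had stood at 90.2 ± 5.92 FPKM (SD, n = 3) in N-deprived cells, so 24 h brought it back to near that level.

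Shared falls were led by scaffold00330.g9268 (scaffold00330, 349377 to 350447), from 46.7, 46.1 and 45.5 to 9.58, 9.10 and 10.4 FPKM in N-deprived cells. The log2 changes were -2.14 and -2.09 (SE 0.142 each), a difference of -0.05 (SE 0.201; limma, adjusted p = 0.867). Transcripts of scaffold00355.g10349 (scaffold00355, 141496 to 143221) went from 326, 293 and 288 to 61.3, 59.6 and 55.5 FPKM, with log2 changes of -2.34 in N-deprived and -2.08 in N-replete cells (SE 0.124 each) and a difference of -0.26 (SE 0.175; limma, adjusted p = 0.221). At 12 h the media were apart, at 157 ± 9.21 FPKM in N-deprived and 56.5 ± 10.5 FPKM in N-replete cells (SD, n = 3 each), so the deprived cells passed through a higher level on the way. An adjusted p above the threshold does not show that these changes were equal.

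The change from 6 to 24 h itself differed between media for many genes. Tested as a difference of the changes, it was more positive in N-deprived cells for 2919 genes and more negative for 1860, 30.3% and 19.3% of the genes (limma, adjusted p under 0.05). By at least 2-fold it was more positive for 305 genes and more negative for 213, 3.16% and 2.21%, and this split turned with the scaling: median-ratio centring gave 184 and 366 genes and quantile normalization 310 and 339. Centring moved the median of this difference over all genes from 0.10 to -0.04. Of the 305 genes 289 (94.8%) rose in N-deprived cells, where 44.3% of all genes did, 210 of them at least 2-fold. In N-replete cells 94 of them (30.8%) fell, a smaller share than the 38.8% of all genes, and 130 (42.6%) rose, against 33.8%. Of the 213 genes 183 (85.9%) fell in N-deprived cells, where 34.7% of all genes did, 129 of them at least 2-fold. In N-replete cells 97 of them (45.5%) rose and 92 (43.2%) fell. Of the genes risen at least 2-fold in N-deprived cells 897 (67.1%) had a more positive change than in N-replete cells, and of those fallen 922 (70.1%) had a more negative one. All of these shares use the contrasts that chose the genes and are a description.

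Abundant transcripts were frequent among those with a more negative change in N-deprived cells. Of the 100 most abundant genes 29 had a change more negative by at least 2-fold, where 2.21% of all genes had. With the 100 genes ranked over the 24 libraries of other times the number was 31. Quantile normalization gave 18 of 100 against 3.51% of all genes, and centring 38 of 100 against 3.79%. The direction was thus kept under each scaling, and the size of the count was not.

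The most positive differences were those of scaffold00271.g8199 and scaffold00214.g6293, which also had the largest rises. In N-replete cells scaffold00271.g8199 stood at 1.59, 0.742 and 1.43 FPKM at 6 h and 3.06, 3.20 and 3.44 FPKM at 24 h, and scaffold00214.g6293 at 1.22, 2.12 and 1.48 FPKM and then 2.45, 1.75 and 1.90 FPKM. The replete libraries of 24 h reached at most 3.44 FPKM for these genes, where the lowest of N-deprived cells was at 46.9 FPKM. The differences of the log2 changes were 3.68 (SE 0.275; limma, adjusted p = 6.51e-12) and 3.62 (SE 0.209; limma, adjusted p = 3.52e-14). The most negative difference was that of scaffold00069.g2383, which rose in N-replete cells from 5681, 5728 and 7490 to 10135, 9668 and 10220 FPKM. The media moved in opposite directions, with a difference of -4.33 (SE 0.157; limma, adjusted p = 5.02e-19). On the same scaffold scaffold00069.g2456 (642714 to 644318) went from 5.36, 4.25 and 2.14 to 50.2, 36.5 and 19.0 FPKM in N-replete cells and from 2.33, 1.02 and 1.53 to 0.242, 0.903 and 0.294 FPKM in N-deprived cells. Its difference was -3.66 (SE 0.354; limma, adjusted p = 1.16e-09), which the rise in N-replete cells makes up for the most part. Its fall in N-deprived cells was between low levels, from a mean of 1.62 to 0.480 FPKM, and its size rested on the pseudocount. The log2 change was -0.82 (SE 0.250; limma, adjusted p = 0.00367) with an added 1 FPKM, -1.68 with 0.1 FPKM (adjusted p = 0.000173) and -0.27 with 5 FPKM, which did not pass (adjusted p = 0.112).

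The only gene with a symbol, isotig00738.DGAT1A, a type 1 diacylglycerol acyltransferase by its symbol, rose moderately. Its level was 35.7, 36.5 and 34.7 FPKM in the 6 h libraries and 56.3, 54.6 and 56.7 FPKM in the 24 h libraries of N-deprived cells. The libraries were tightly grouped and apart, and the log2 change was 0.63 (SE 0.069; limma, adjusted p = 9.21e-10). In N-replete cells it went from 17.8, 19.2 and 19.4 to 21.2, 20.3 and 24.0 FPKM, a log2 change of 0.20 (SE 0.069; limma, adjusted p = 0.0102). The change in N-deprived cells was larger by 0.43 (SE 0.097; limma, adjusted p = 0.000523). The 6 h libraries were its lowest in N-deprived medium, after 50.4 ± 3.39 at 3 h and 42.8 ± 1.62 FPKM at 4 h, and it stood at 63.6 ± 5.90 FPKM at 48 h (SD, n = 3 each). N-replete cells also had their lowest mean at 6 h, at 18.8 ± 0.854 after 30.3 ± 0.635 FPKM at 3 h (SD, n = 3 each). The 24 h level of N-deprived cells was not called different from that of 3 h. That log2 change was 0.15 (SE 0.069; limma, adjusted p = 0.0537). Of the 4271 genes that rose, 1337 did so by at least 2-fold and thus by more than isotig00738.DGAT1A.

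Libraries of other times held the same direction for most of the changed genes. Between 4 and 48 h of deprivation, in 6 libraries that entered neither 24 h nor 6 h group, 1180 of the 1337 risen genes (88.3%) were called higher and 45 lower, where 44.5% of all genes were called higher and 32% lower. Of the 1315 fallen genes 1218 (92.6%) were called lower and 13 higher. Against N-replete cells at 48 h 1060 of the risen genes (79.3%) were higher and 121 lower, where 46.1% and 29.8% of all genes were. Of the fallen genes 1155 (87.8%) were lower and 24 higher. At 3 h the media separated these genes much less: 31.3% of the risen genes were higher in N-deprived cells and 17.4% lower, against 28% and 12% of all genes, and 22.9% of the fallen genes were higher and 6.69% lower. The lower calls among the fallen genes were 88 of 1315, and 162 of 1404 after median-ratio centring and 147 of 1418 after quantile normalization. The share of all genes called lower at 3 h is not given for these 2 scalings. These 2 counts therefore cannot be set against all genes.

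At 12 h the fallen genes were more often above than below their N-replete level. In that comparison 763 of the 1315 (58.0%) were called higher in N-deprived cells and 170 (12.9%) lower, where 38.7% and 23.9% of all genes were. Their median log2 difference between the media was 0.31 at 12 h, against 0.10 for all genes, and -0.98 at 48 h, against 0.16. Of the 1337 risen genes 414 (31%) were called higher at 12 h and 484 (36.2%) lower. They were thus higher less often and lower more often than all genes. The change of sign between 12 and 48 h is given by values side by side and was not tested.

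In N-replete cells the same genes had moved the other way before 6 h and after 24 h. From 3 to 6 h 1051 of the 1315 fallen genes (79.9%) were called higher in N-replete cells, against 35.5% of all genes, and 959 of the 1337 risen genes (71.7%) were called lower, against 31.3%. From 24 to 48 h 1037 of the fallen genes (78.9%) were called higher in N-replete cells, against 32.8% of all genes, and 747 of the risen genes (55.9%) lower, against 25.1%. These comparisons share no library with the deprived one, although each shares 3 libraries with the replete change from 6 to 24 h.

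**Figure D3:**
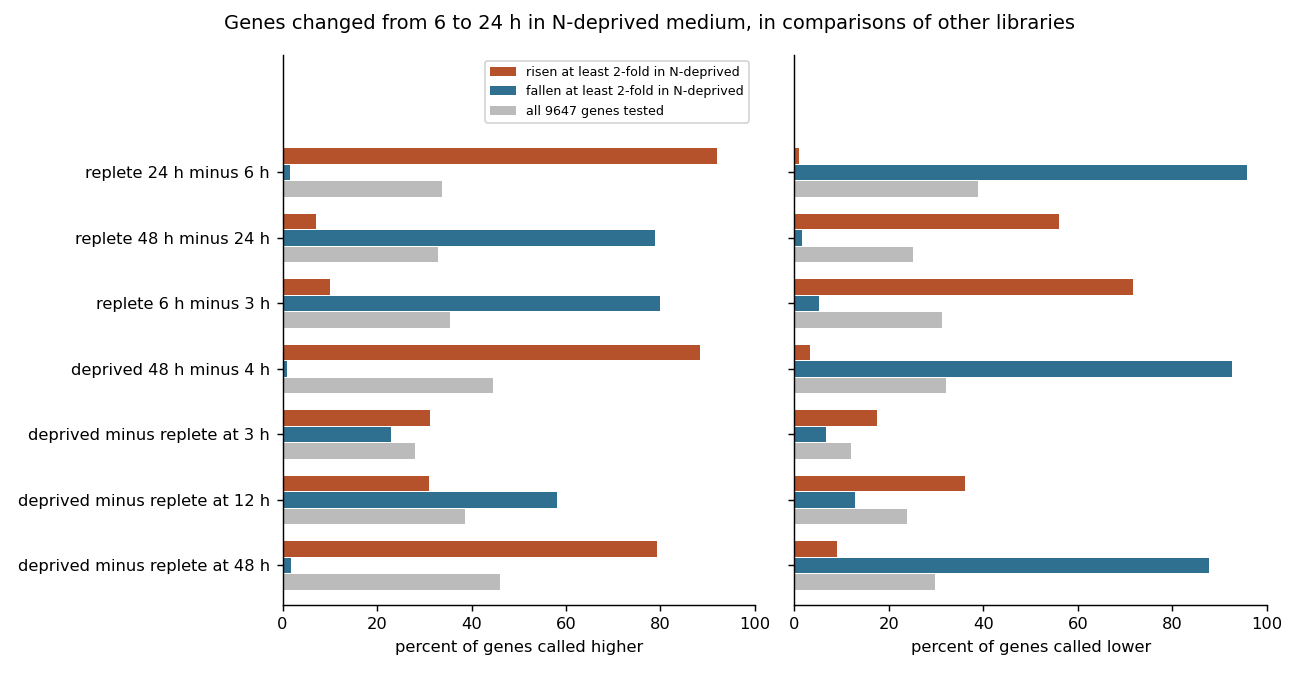
Bars give the percent of genes called higher or lower (limma, adjusted p under 0.05) in 7 comparisons that use neither the 24 h nor the 6 h libraries of N-deprived cells, for the genes risen and fallen at least 2-fold and for all 9647 genes. In N-deprived cells 88.3% of the risen genes are higher at 48 h than at 4 h, and in N-replete cells 78.9% of the fallen genes are higher at 48 h than at 24 h.

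Median levels of the sets showed where the media parted. Taken as log2(FPKM + 1) less the mean of each gene over 36 libraries, the risen genes stood in N-deprived cells at 0.12 at 3 h, -0.57 at 6 h, -0.36 at 12 h, 0.84 at 24 h and 0.77 at 48 h. In N-replete cells they stood at 0.04, -0.52, -0.41, 0.30 and -0.01. The fallen genes went from 0.15 at 3 h to 0.83 at 6 h, -0.39 at 12 h, -0.77 at 24 h and -0.73 at 48 h in N-deprived cells. In N-replete cells their values were 0.06, 0.74, -0.64, -0.35 and 0.23. The media were close at 6 h and furthest apart at 48 h, when the N-replete values lay nearer to those of 3 h than the N-deprived values did. The median over all genes fell to -0.51 in N-deprived and -0.59 in N-replete cells at 12 h, so the 12 h values of each set carry a shift of whole libraries. The values at 6 and 24 h in N-deprived cells are those that chose the sets.

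The genes with different changes followed other courses. The 305 with a more positive change stood higher in N-deprived cells from 3 h on, at 0.11 against -0.26, and at 1.30 against -0.38 at 48 h, where 293 of them (96.1%) were called higher, against 46.1% of all genes. The 213 with a more negative change stood at 0.04 against 0.08 at 3 h, at -0.59 against -0.01 at 12 h and at -1.34 against 0.55 at 48 h, where 199 (93.4%) were called lower, against 29.8% of all genes. At 12 h 231 of the 305 (75.7%) were called higher than in N-replete cells and 24 lower, where 38.7% and 23.9% of all genes were. Of the 213 genes 113 (53.1%) were called lower at 12 h and 42 higher.

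**Figure D4:**
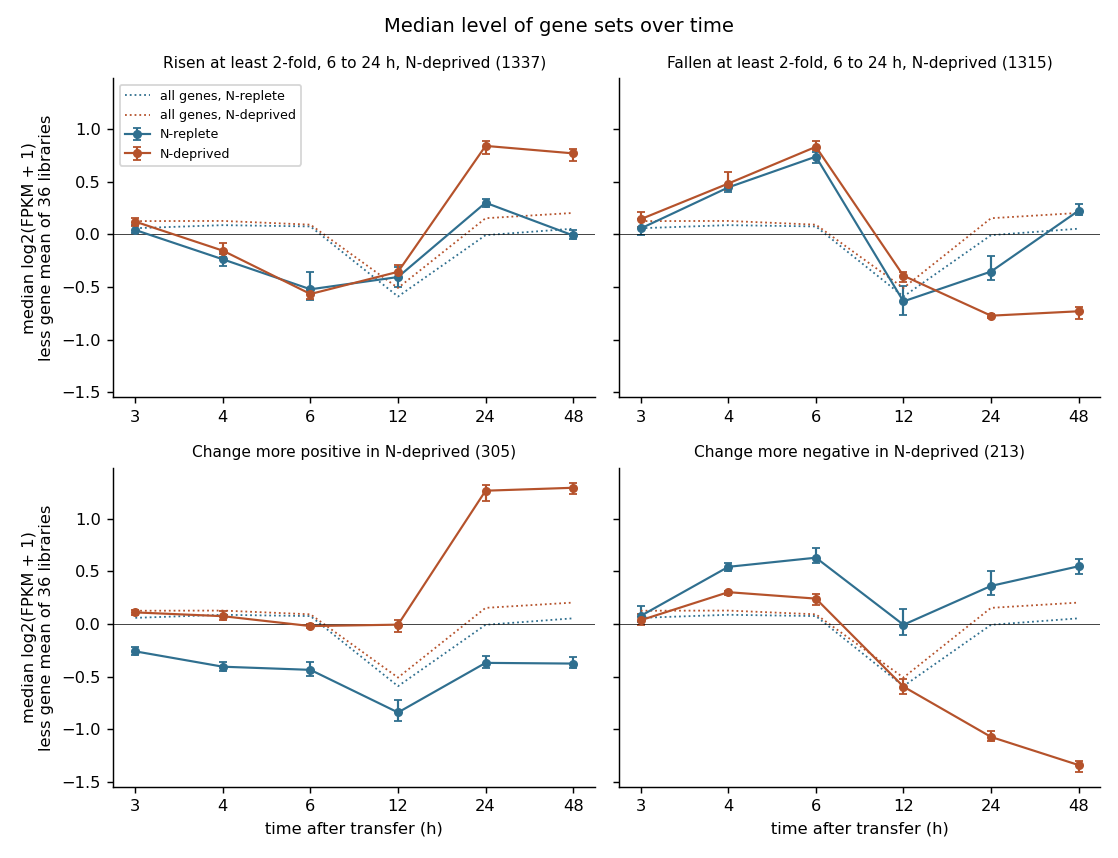
Points are the mean over 3 libraries of the median log2(FPKM + 1) of a gene set, less the gene means over 36 libraries, against time after transfer, with bars from the lowest to the highest library, and dotted lines are all genes. The upper panels show the risen and fallen genes, whose N-replete level returns to -0.01 and 0.23 at 48 h, and the lower panels the genes whose change differed between media.

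Genes that changed alike tended to lie side by side. Among 9289 pairs of consecutive gene models, none of which overlap, 23.2% of the neighbours of a gene risen at least 2-fold had themselves risen that far, against 13.9% of all genes. Of the neighbours of a fallen gene 24.7% had fallen, against 13.6%, and 9.92% of the neighbours of a risen gene had fallen. Median spacing was 124 bp, and the libraries carry no strand information, so reads running past the end of a model can count for its neighbour. With at least 500 bp between the models, in 1672 pairs, the shares were 22.9% for risen and 18.9% for fallen genes. For the genes with a more positive or more negative change in N-deprived cells 9.98% and 12.7% of neighbours were of the same kind, against 3.16% and 2.21%. At 500 bp or more these shares were 10.6% and 13%, from 14 neighbours each. The shares of all genes were not taken anew for the genes in these spaced pairs. The size of the excess at 500 bp or more is therefore uncertain.

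There were 40 runs of at least 3 consecutive models that all rose at least 2-fold and 58 that all fell. The longest had 5 models, 2 of them risen and 3 fallen, and the ones with the largest mean change are described. The risen run lay on scaffold00140 (813055 to 828886), with log2 changes of 1.00 to 2.46 and levels of 2.47 to 171 FPKM at 6 h and 17.3 to 452 FPKM at 24 h. In N-replete cells the same models changed by 0.74 to 1.50. The fallen run lay on scaffold00328 (15358 to 32211), with changes of -2.33 to -1.49 in N-deprived and -1.66 to -0.82 in N-replete cells, from levels of 13.1 to 372 FPKM. Of these models 5 were also called lower between 4 and 48 h of deprivation, and 4 of the 5 that rose were called higher. Of all genes 32% were called lower and 44.5% higher. Of all genes fallen at least 2-fold 92.6% were called lower, and of those risen 88.3% higher, so these counts are not particular to the runs. Over the 29 sequences with at least 100 tested genes the share risen at least 2-fold ran from 10.1% to 22.2% and the share fallen from 5.67% to 19.4%.

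**Figure D5:**
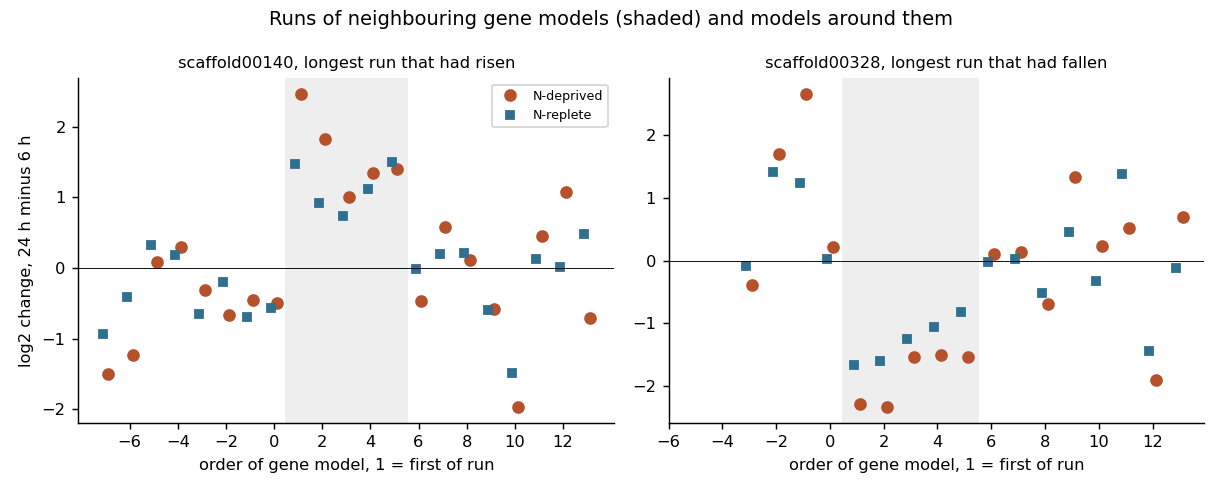
Log2 changes from 6 to 24 h are plotted against the order of gene models along the sequence for a run of 5 models that rose (scaffold00140) and one that fell (scaffold00328), in N-deprived and N-replete cells. The shaded 5 models lie at 1.00 or above in the first and at -1.49 or below in the second panel in N-deprived cells.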

How the data were processed

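Poly(A) RNA of whole cells was sequenced as strand-nonspecific paired-end libraries, per the labels' protocols. The authors deposited FPKM for every gene model. The submitters' processing notes list TopHat2 2.0.4 as well as Cufflinks 2.0.2, without their roles; the genome build is not given in the sources used here. Because FPKM is relative, lower abundant transcripts lift the values of the rest, and fragments of near-identical genes may be split between them. The 36 per-library tables and the table of the series differed in 0 values.

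Groups came from the titles. Tests covered 9647 of 9756 genes, those reaching 1 FPKM in 3 or more of the 36 libraries. They were run on log2(FPKM + 1) with limma 3.58.1 in R 4.3.3, fitting 12 group means together, with moderated variances, a trended prior, and Benjamini-Hochberg adjustment over all genes within each contrast. Fold changes on this scale understate those of low genes. The code was tested on simulated data. The smallest two-sided p of an exact permutation test on 3 against 3 libraries is 0.10, so single-gene calls rest on limma. Its p-values use a variance pooled over the replicate libraries of all 12 groups and moderated across genes. Libraries were treated as independent, although a replicate number may follow 1 culture over time. Positions are 1-based, from the files' loci.

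Named genes were, by rule, the 2 largest rises and falls of the deprived contrast (all genes, then the 100 most abundant), the 2 most positive and negative differences between media, the 2 largest shared rises and falls with no called difference, the 2 least changed abundant genes and the gene with a symbol. The genes, sets and tests were chosen with earlier results of these data known. Alternatives were the scaling, pseudocount, filter, samples in the fit, variance prior, replicate block and leaving out each library.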

Additional observations from a re-analysis of the deposited data

Results flagged for a closer look

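For 7 of the named genes the change from 6 to 24 h differed between N-deprived and N-replete cells by at least 2-fold, by a test of the difference itself (limma, Benjamini-Hochberg adjusted p under 0.05 over 9647 genes). The naming rule took some genes for the size of this difference and others for its absence, so this number describes the choice of genes. Of all genes tested 3.16% had a change more positive and 2.21% more negative by at least 2-fold. The difference of the log2 changes, N-deprived less N-replete, was 3.68 for scaffold00271.g8199 and 3.62 for scaffold00214.g6293, which rose in N-deprived cells. It was -4.33 for scaffold00069.g2383, which fell in N-deprived and rose in N-replete cells, and -1.41 for scaffold00267.g7684, which fell in both. It was 1.84 for scaffold00095.g3438, whose N-replete level was 731 ± 40.3 FPKM at 6 h and 775 ± 86.2 FPKM at 24 h (SD, n = 3 each). It was -3.66 for scaffold00069.g2456, where the N-replete rise was the larger part, and 1.81 for scaffold00145.g4962, which fell in N-replete cells only, its N-deprived log2 change being 0.01 (SE 0.096). Groups of 3 libraries were not tested for single outlying libraries.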

How the results depend on the processing

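All counts of genes risen or fallen in N-deprived cells stayed within 1.5 times under the alternatives run, from 4045 to 4348 genes risen and 3165 to 3683 fallen, and at least 2-fold from 935 to 1486 risen and 1072 to 1418 fallen. Leaving out 1 library gave 1295 to 1430 genes risen and 1292 to 1332 fallen at least 2-fold. An added 5 FPKM lowered the genes risen at least 2-fold in N-replete cells to 425 and the genes with a change more positive or more negative in N-deprived cells to 182 and 113, since it shrinks the change of low genes. Median-ratio centring gave 184 and 366 of these, and quantile normalization 339 with a more negative change; the cause was not tested. Leaving out 1 library gave 271 to 345 and 164 to 255. Of 255 checks of named genes 249 kept direction and side of the threshold. Those that did not were scaffold00069.g2456 with an added 5 FPKM (-0.27) and the least changed genes, for which a sign carries no call: scaffold00145.g4962 at -0.053 with centring, -0.24 with quantile normalization and -0.012 to 0.022 without 1 library, and scaffold00214.g6067 at -0.057 to 0.051 without 1 library. Of 260 checks of the sets in comparisons of other libraries 256 stayed within 1.5 times; those of the N-replete change from 3 to 6 h were added after seeing the data. Whether replicate numbers pair the samples was not settled. Across genes, deviations from the group mean correlated at -0.03, -0.05 and -0.01 between same-numbered N-deprived libraries of 6 and 24 h, short of the 0.1 asked for pairing. Yet replicate 3 had the lowest summed and median FPKM in all 6 N-deprived groups and the highest in all 6 N-replete groups, so the number does go with the level of whole libraries. With culture as a fixed replicate block 4340 genes rose and 3404 fell, and 1337 and 1315 at least 2-fold; as a random effect (correlation 0.122) 4338 rose and 3413 fell. Depth limits genes below 1 FPKM, where a few fragments set the value.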
